A study of Homo sapiens with 6 samples.

Results

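The miR-148 and miR-152 family comprises the mature miRNAs of 3 hairpins, miR-148a, miR-148b and miR-152, whose 3p arms carry 1 common seed, the stretch at bases 2 to 8 through which a miRNA pairs with its target mRNAs. Its members are 5 named arms (miR-148a-3p, miR-148b-3p, miR-152-3p, miR-148a-5p and miR-148b-5p) of the 1000 mature miRNAs in the count table. The sixth arm of these hairpins in the table, miR-152-5p, was not in the list of members and is given only beside miR-152-3p. All 5 members had a count in every library and were among the 826 miRNAs tested. The samples were HEK 293T cells, an immortalised human embryonic kidney line, and a derived TENT3A/B double knockout strain. TENT3A and TENT3B are other names of TUT4 and TUT7, so the knockout strain is called ΔTUT4/7 here. Each strain was sequenced in 3 libraries given as biological replicates, with no treatment. The ΔTUT4/7 cells are 1 strain made earlier in another laboratory, so anything else that separates it from the wild type cells is part of each difference. Mature miRNA counts do not measure TUT4, TUT7 or the mRNA markers of the cell line, so the labels could not be checked with them.

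TUT4 and TUT7 add uridines to the 3′ end of miRNA precursors, which can mark a precursor for decay or, in precursors of group II, prepare it for cleavage by DICER. None of the 3 hairpins of the family is on the list of group II precursors that was used for these cells. A hairpin yields a 5p and a 3p arm, of which usually one is loaded into an Argonaute protein as the guide while the other, the passenger, is degraded. In this family the 3p arms are the guides. They are best known as repressors of DNMT1, the maintenance DNA methyltransferase, and miR-148a also represses the LDL receptor mRNA in liver.

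The 3 guide arms are shown with bases 2 to 8 in capitals, as RefSeq lists them for GRCh38.p14, because they differ from each other at so few positions.
hsa-miR-148a-3p: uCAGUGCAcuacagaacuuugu
hsa-miR-148b-3p: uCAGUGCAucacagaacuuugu
hsa-miR-152-3p: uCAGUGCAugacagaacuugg
Counted from 1 at the 5′ end, with the base of the first-named arm first, miR-148a-3p and miR-148b-3p differ at C9U and U10C. miR-148a-3p and miR-152-3p differ at C9U, U10G and U20G. miR-148b-3p and miR-152-3p differ at C10G and U20G, of which only C10G lies within the 18 nt to which the reads were trimmed. No other arm with a listed sequence has the same first 18 nt as any of the 3. How many mismatches the alignment allowed was not stated in the sources used here. Of the 897 arms of the table with a listed mature sequence, 3 (0.334%) carry CAGUGCA at bases 2 to 8, and they are these 3 guide arms.

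The hairpins are shown 5′ to 3′, with the arms at the coordinates of the count table in capitals, because the results differ between the arms of one hairpin. The capitals nearer the 5′ end are the 5p arm.
MIR148A: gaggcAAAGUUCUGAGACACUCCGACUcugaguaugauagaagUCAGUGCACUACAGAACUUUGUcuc
MIR148B: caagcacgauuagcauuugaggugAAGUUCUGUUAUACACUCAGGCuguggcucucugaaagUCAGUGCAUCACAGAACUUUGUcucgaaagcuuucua
MIR152: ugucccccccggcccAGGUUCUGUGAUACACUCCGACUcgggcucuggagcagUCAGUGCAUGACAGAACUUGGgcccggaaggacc
The miR-148a hairpin lies on the minus strand at chr7:25949919-25949986 of hg38, in an intron of the lncRNA ENSG00000270933. The miR-148b hairpin lies on the plus strand at chr12:54337216-54337314, in an intron of COPZ1, which encodes a zeta subunit of the coatomer (COPI) coat of transport vesicles. Another gene annotated on the same strand, ENSG00000258344, also spans its arms. The miR-152 hairpin lies on the minus strand at chr17:48037161-48037247, in an intron of COPZ2, which encodes the other zeta subunit. The stretch between the arms is 16, 16 and 15 nt long in miR-148a, miR-148b and miR-152.

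Values are estimated counts of the authors, given as CPM, counts scaled by each library's total. The totals were 4688610 to 5073921 for ΔTUT4/7 and 4338558 to 7967606 for wild type. Strains were compared on the counts by the quasi-likelihood test of edgeR, with p-values adjusted after Benjamini and Hochberg over the 826 miRNAs tested, and a difference is called when the adjusted p is under 0.05. The 2-fold limit used in the study (log2 fold change of 1 or more in either direction) is given as a second rule. Log2 fold changes are ΔTUT4/7 over wild type, so negative values are lower in ΔTUT4/7. These are bulk libraries, in which fewer cells that carry a miRNA and less of it per cell cannot be told apart.

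Of the 5 members, 2 fell in ΔTUT4/7 cells, miR-152-3p by 5.38-fold and miR-148a-3p by 2.38-fold, and none rose at an adjusted p under 0.05 by edgeR's quasi-likelihood test. The third guide, miR-148b-3p, and the passenger arms miR-148a-5p and miR-148b-5p were not called. No member was higher at an unadjusted p under 0.05 either, and DESeq2 and limma-trend called 0 members higher. Among all tested miRNAs, 21.9% fell and 23.2% rose by the same rule, and 45.2% were called in either direction. With the 2-fold limit added, the same 2 members were called, against 30.0% of all tested miRNAs, of which 13.6% were lower. In level the members ranged from the mean of miR-148a-3p at rank 10 of all miRNAs, through miR-148b-3p at rank 27, miR-152-3p at rank 133 and miR-148a-5p at rank 234, to miR-148b-5p at rank 456. Each neighbouring pair in this order was separated in every library.

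**Figure D1:**
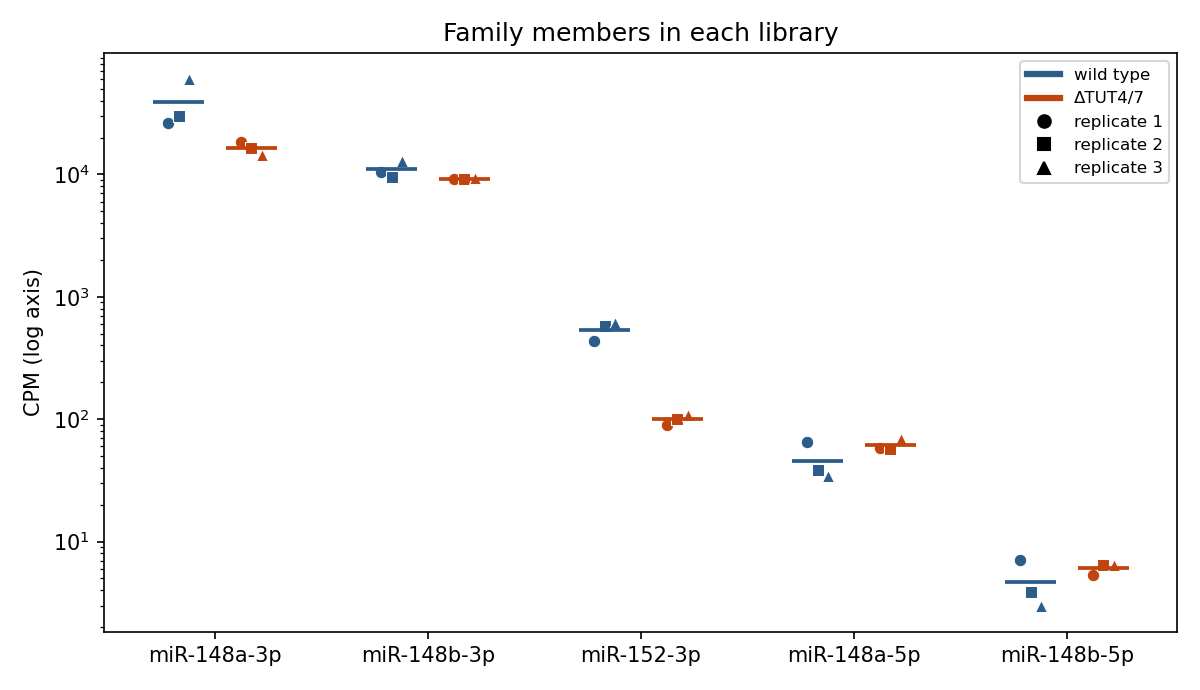
CPM of the 5 family members (log axis) in the 3 wild type (blue) and 3 ΔTUT4/7 (orange) libraries, with the replicate shown by the marker and the mean by a bar. The strains are apart for all 3 guide arms, as for 58.4% of all tested miRNAs, with the widest gap in miR-152-3p (89.9 to 109 CPM against 434 to 605 CPM), and overlap for both 5p arms.

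miR-152-3p had 89.9, 101 and 109 CPM in ΔTUT4/7 replicates 1, 2 and 3 and 434, 573 and 605 CPM in wild type replicates 1, 2 and 3. Every ΔTUT4/7 library was far below every wild type library. The means were 99.9 ± 9.59 CPM and 537 ± 91.1 CPM (SD, n = 3 each), resting on 1452 and 9104 counts. The log2 fold change was -2.43 (standard error 0.18, 95% interval -2.82 to -2.04), with an adjusted p of 5.46e-07 by edgeR's quasi-likelihood test. Only 4.72% of the tested miRNAs had a lower log2 fold change. The fall was present with each of the 6 libraries left out, at -2.56 to -2.33. The partner arm miR-152-5p, which was not listed as a member, was near the limit of detection, with counts of 2, 2 and 3 for ΔTUT4/7 and 1, 13 and 2 for wild type, and its log2 fold change of -0.86 had a 95% interval from -2.59 to 0.88 (edgeR adjusted p = 0.398). Whether both arms of miR-152 fell alike was therefore not detectable at this depth.

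miR-148a-3p, the most abundant member, had 18236, 16302 and 14293 CPM in ΔTUT4/7 replicates 1, 2 and 3. In wild type replicates 1, 2 and 3 it had 26189, 30249 and 59817 CPM. The strains did not overlap, as in 58.4% of all tested miRNAs, but wild type replicate 3 lay well above the other wild type libraries, in which miR-148a-3p ranked 10 and 6 in abundance against 2 in replicate 3. The means were 16277 ± 1972 CPM for ΔTUT4/7 and 38752 ± 18356 CPM for wild type (SD, n = 3 each). The log2 fold change was -1.25 (standard error 0.25, 95% interval -1.80 to -0.71), with an adjusted p of 0.00173 by edgeR's quasi-likelihood test. Its size rested in part on wild type replicate 3. Without that library the log2 fold change was -0.79 (edgeR adjusted p = 4.37e-04), a 1.73-fold difference of the mean CPM, and miR-148a-3p was no longer past the 2-fold limit, which left 1 member, miR-152-3p, past it. The call at an adjusted p under 0.05 was present in all 6 fits with 1 library left out.

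miR-148b-3p had 9229, 9121 and 9373 CPM in ΔTUT4/7 replicates 1, 2 and 3 and 10540.3, 9507 and 12924 CPM in wild type replicates 1, 2 and 3. All ΔTUT4/7 libraries lay below all wild type libraries, although the lowest wild type library exceeded the highest ΔTUT4/7 library by little. The means were 9241 ± 126 CPM and 10990.4 ± 1753 CPM (SD, n = 3 each). Its log2 fold change was -0.25 with a 95% interval from -0.53 to 0.03, which leaves out a 2-fold fall, and edgeR gave an adjusted p of 0.126. Without wild type replicate 2 it passed the limit on the adjusted p, at -0.34 (edgeR adjusted p = 0.0473). When let-7 and miR-98 were removed from the library totals, miRNAs that gained a large share of the ΔTUT4/7 counts, it was -0.03. That scaling shifted the median of all tested miRNAs upward by 0.22 on the log2 scale.

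**Figure D2:**
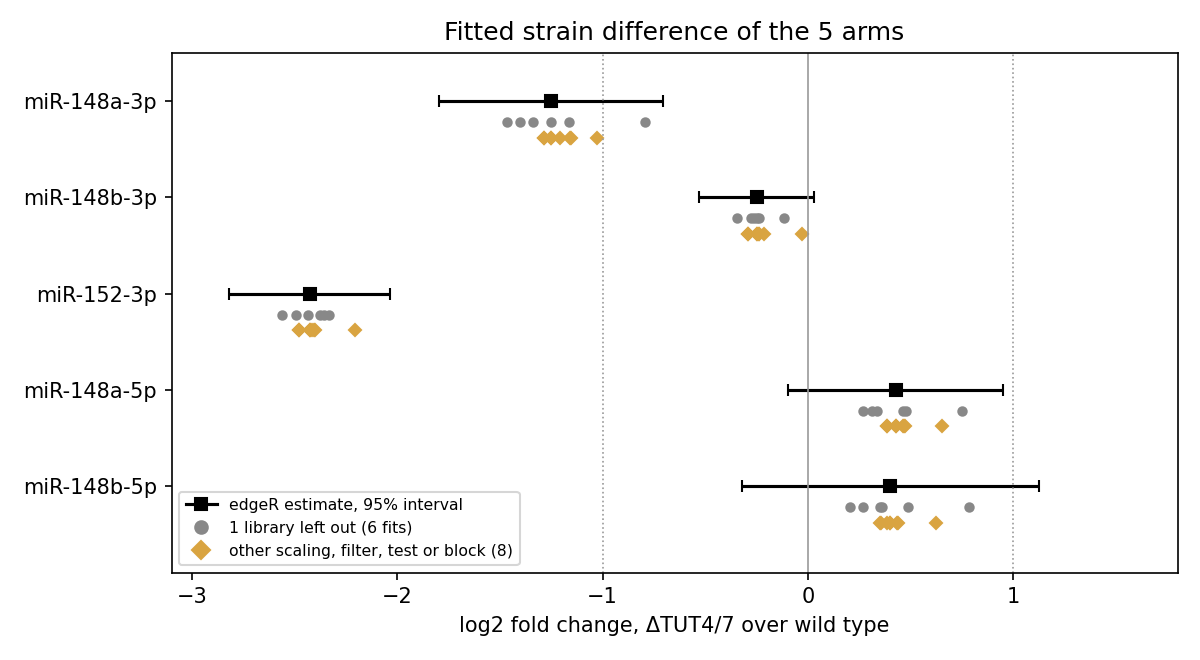
Log2 fold change (ΔTUT4/7 over wild type) of the 5 arms, with the edgeR estimate and its 95% interval (black), the 6 fits with 1 library left out (grey) and 8 fits with another scaling, filter, test or block (yellow). Dotted lines mark 2-fold. miR-152-3p stays below -2 throughout, and the grey point of miR-148a-3p nearest to 0, at -0.79, is the fit without wild type replicate 3.

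The passenger arm miR-148a-5p had 58.5, 57.2 and 68.9 CPM in ΔTUT4/7 replicates 1, 2 and 3 and 64.8, 38.5 and 34.3 CPM in wild type replicates 1, 2 and 3. Wild type replicate 1 lay among the ΔTUT4/7 libraries and the other wild type libraries lay below them. The means were 61.5 ± 6.41 CPM and 45.9 ± 16.5 CPM (SD, n = 3 each), and the log2 fold change was 0.43 (standard error 0.24, 95% interval -0.10 to 0.95, edgeR adjusted p = 0.161). This arm passed the limit without wild type replicate 1, at 0.75 (edgeR adjusted p = 0.0132), and after removal of let-7 and miR-98 from the totals, at 0.65 (edgeR adjusted p = 0.0403).

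miR-148b-5p rested on 27, 31 and 30 counts in ΔTUT4/7 replicates 1, 2 and 3 and 31, 31 and 13 counts in wild type replicates 1, 2 and 3. These are 5.32, 6.45 and 6.40 CPM and 7.03, 3.89 and 3.00 CPM. Here too wild type replicate 1 was the highest library of its strain, and the strains overlapped. The log2 fold change was 0.40 (standard error 0.33, 95% interval -0.32 to 1.12, edgeR adjusted p = 0.343), so neither no change nor a 2-fold rise could be told apart from it at this depth.

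**Figure D3:**
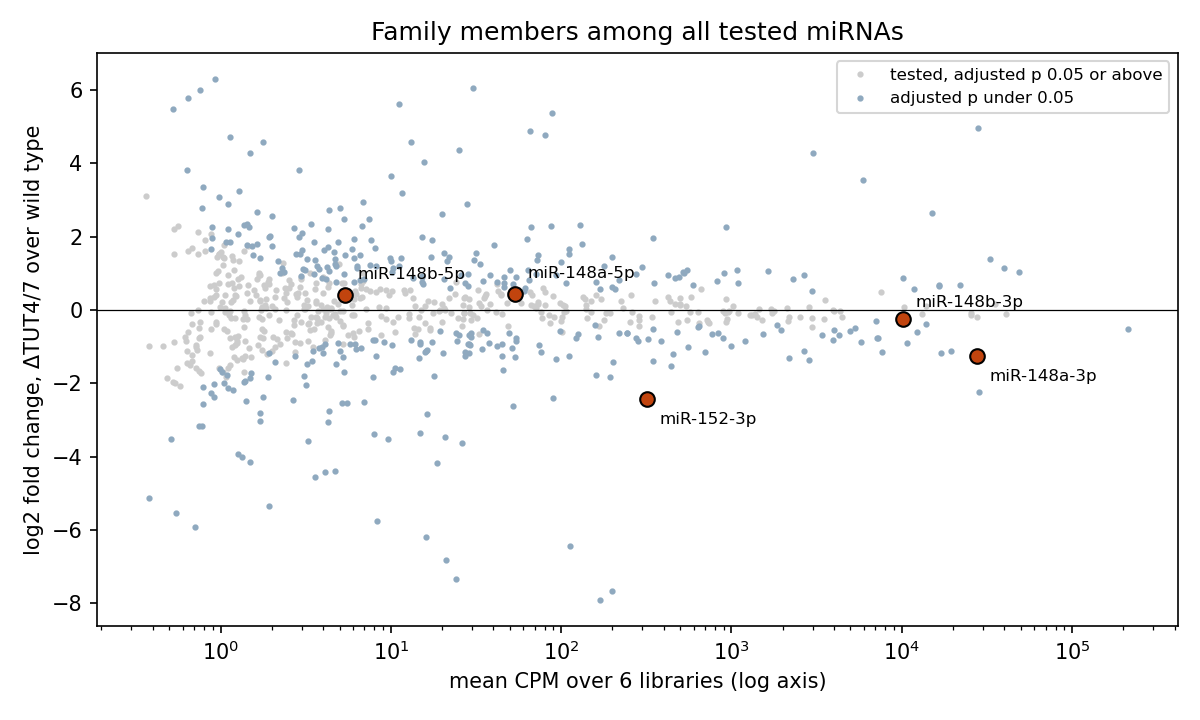
Log2 fold change (ΔTUT4/7 over wild type) against mean CPM over 6 libraries (log axis) for the 826 tested miRNAs, with the family members in orange. miR-152-3p (-2.43) lies at the lower edge of miRNAs of its level, miR-148a-3p (-1.25) among the lower of the abundant miRNAs, and the other members near 0.

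The family as a whole was dominated by miR-148a-3p and miR-148b-3p. Summed over the 5 members, it took 2.76%, 2.56% and 2.39% of the counts in ΔTUT4/7 replicates 1, 2 and 3 and 3.72%, 4.04% and 7.34% in wild type replicates 1, 2 and 3. The sums were 25686 ± 1886 CPM and 50330 ± 20026 CPM (SD, n = 3 each), with a difference of -0.90 in mean log2 (2-sided exact permutation test, p = 0.1, the smallest that 3 against 3 libraries can give). Without wild type replicate 3 the difference in mean log2 was -0.60 and the wild type mean 38803 CPM.

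The make-up of the family differed between the strains. miR-148a-3p made up 59.9% to 66.0% of the family's counts in ΔTUT4/7 and 70.3% to 81.5% in wild type libraries. The share of miR-148b-3p was 33.4% to 39.3% in ΔTUT4/7 and 17.6% to 28.3% in wild type libraries. The share of miR-152-3p was 0.325% to 0.457% in ΔTUT4/7 and 0.824% to 1.42% in wild type libraries. For each of the 3 guide arms the ranges of the strains were apart. The shares of a library sum to 100%, so these are not 3 separate results. The CPM of miR-148b-3p were not higher in the ΔTUT4/7 libraries, although its share was.

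Ratios of 2 arms within a library do not depend on the library total, so 6 of them were compared between the strains, each with a 2-sided exact permutation test whose smallest possible p is 0.1, adjusted over the 6. The ratio of miR-148b-3p to miR-152-3p was 103, 90.4 and 86.0 in ΔTUT4/7 replicates 1, 2 and 3 and 24.3, 16.6 and 21.4 in wild type replicates 1, 2 and 3. The strains were far apart, with a difference in mean log2 ratio of 2.18 (p = 0.1 by the exact permutation test, adjusted p = 0.15), or 4.52-fold. The ratio of miR-148a-3p to miR-152-3p was 131 to 203 in ΔTUT4/7 and 52.8 to 98.9 in wild type libraries, a difference of 1.26 (p = 0.1 by the exact permutation test, adjusted p = 0.15). The ratio of miR-148a-3p to miR-148b-3p was 1.52 to 1.98 in ΔTUT4/7 and 2.48 to 4.63 in wild type libraries, a difference of -0.92 (p = 0.1 by the exact permutation test, adjusted p = 0.15). In all 3 ratios among the guide arms the strains did not overlap, but any 2 of these ratios fix the third. In every ΔTUT4/7 library miR-152-3p was lower against both paralogs than in any wild type library, but the tests cannot pass a limit of 0.05 with these numbers of libraries.

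The passenger arms kept a narrower ratio. miR-148a-5p to miR-148b-5p was 11.0, 8.87 and 10.8 in ΔTUT4/7 replicates 1, 2 and 3 and 9.23, 9.90 and 11.5 in wild type replicates 1, 2 and 3. The strains overlapped, with a difference in mean log2 ratio of 0.0098 (p = 1 by the exact permutation test).

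**Figure D4:**
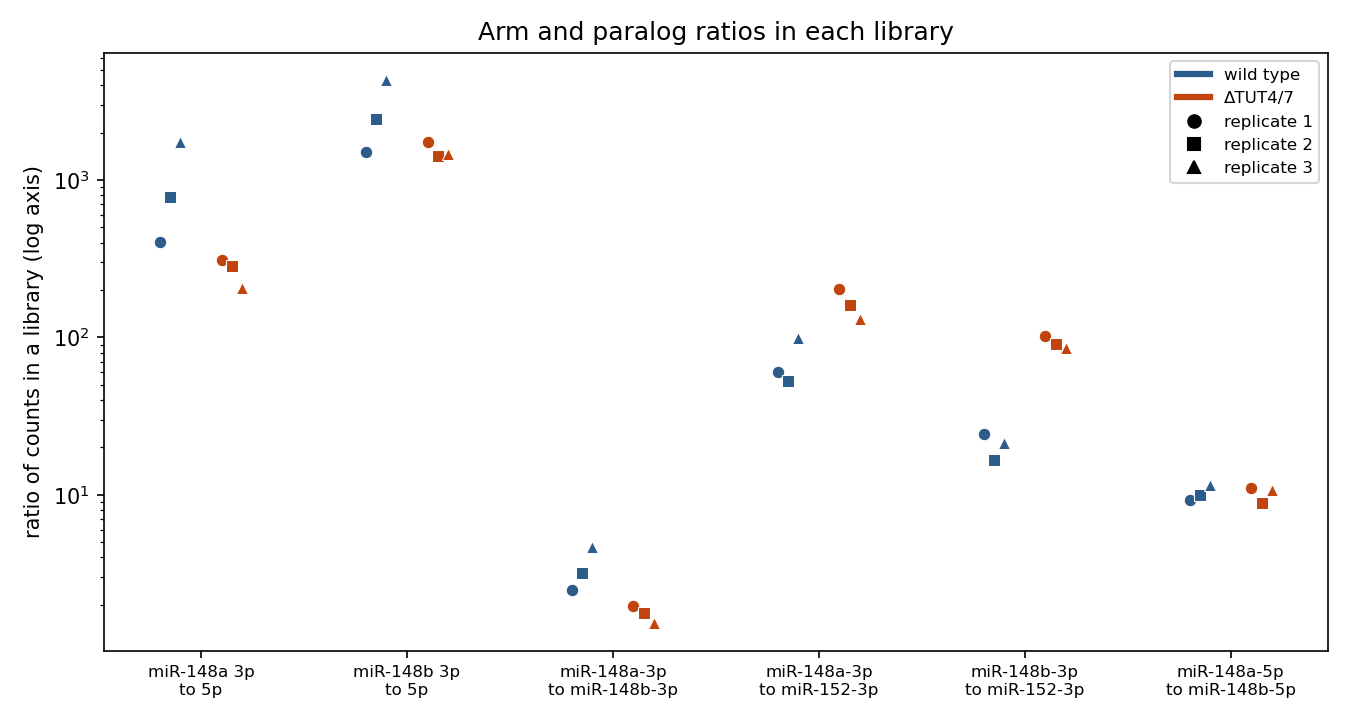
Ratio of counts of 2 arms within a library (log axis) for the 6 ratios compared, in wild type (blue) and ΔTUT4/7 (orange) libraries, with the replicate shown by the marker. The strains are apart for the 3p to 5p ratio of miR-148a and for the 3 ratios among guide arms, and overlap for the 3p to 5p ratio of miR-148b and for the ratio of the 5p arms.

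The guide to passenger ratio of miR-148a was 312, 285 and 207 in ΔTUT4/7 replicates 1, 2 and 3 and 404, 785 and 1742 in wild type replicates 1, 2 and 3. The strains did not overlap, but the wild type libraries differed from each other by more than the lowest of them differed from the ΔTUT4/7 libraries. The difference in mean log2 ratio was -1.63, or 3.10-fold (p = 0.1 by the exact permutation test, adjusted p = 0.15). Without wild type replicate 3 it was -1.09. The ratio of miR-148b was 1734, 1415 and 1465 in ΔTUT4/7 replicates 1, 2 and 3 and 1500.1, 2443 and 4313 in wild type replicates 1, 2 and 3. The strains overlapped through wild type replicate 1, with a difference of -0.70 (p = 0.2 by the exact permutation test, adjusted p = 0.24), which was -0.32 without wild type replicate 3 and -1.07 without wild type replicate 1. In both hairpins wild type replicate 3 had the highest and wild type replicate 1 the lowest ratio among the wild type libraries.

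To set these beside other hairpins, the log2 ratio of the arms was fitted with limma across the 200 hairpins with both arms tested under matching names, a comparison added after the data were seen. The adjusted p was 0.112 for miR-148a (standard error 0.53) and 0.300 for miR-148b (standard error 0.39), and 7.0% of the hairpins passed by the same limma fit. The difference of miR-148a was lower than that of all but 5% of the hairpins. The hairpin of miR-152, whose 5p arm is no member, was also in this fit. Its difference was -2.15 (standard error 0.51, limma adjusted p = 0.0536), and 1.5% of the hairpins had a lower one. That value rests on the few counts of miR-152-5p given above. The median log2 ratio over the 200 hairpins was -0.45, -0.60 and -0.53 in wild type replicates 1, 2 and 3 and -0.90, -0.78 and -0.66 in ΔTUT4/7 replicates 1, 2 and 3. The spread of the wild type libraries in the ratios of miR-148a and miR-148b thus did not appear in the median hairpin. A lower 3p to 5p ratio in ΔTUT4/7 did appear there, since every ΔTUT4/7 median lay below every wild type median.

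The spread among wild type libraries was wider than that among ΔTUT4/7 libraries for every member. How many of all tested miRNAs share this was not counted. It was not particular to the family. It was also seen in miR-10a-5p (SD 6082 and 330 CPM in wild type and ΔTUT4/7 libraries). The same held for miR-454-3p (411 and 254 CPM), miR-301a-3p (339 and 78.0 CPM), miR-130b-3p (266 and 55.9 CPM) and miR-301b-3p (123 and 9.22 CPM). Among the arms listed below from the HOX clusters, only miR-615-3p (173 and 292 CPM) and miR-10b-3p (13.7 and 22.1 CPM) went the other way. The coefficient of variation in wild type and in ΔTUT4/7 libraries was 47.4% and 12.1% for miR-148a-3p, 15.9% and 1.37% for miR-148b-3p, 17% and 9.60% for miR-152-3p, 36.0% and 10.4% for miR-148a-5p and 45.6% and 10.5% for miR-148b-5p. Both 3p arms of miR-148 were highest in wild type replicate 3, while both 5p arms were lowest there. The part of this library in the differences was measured by leaving it out, as given above.

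The miR-130, miR-301 and miR-454 family is the closest relative in seed, since its heptamer at bases 2 to 8 starts 1 base further into the same letters. It is shown for comparison with the guide arms above, again with bases 2 to 8 in capitals.
hsa-miR-130b-3p: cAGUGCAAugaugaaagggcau
hsa-miR-301a-3p: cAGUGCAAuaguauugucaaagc
hsa-miR-454-3p: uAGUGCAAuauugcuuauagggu
Of 7 listed arms of that family, 4 were tested and all 4 were lower in ΔTUT4/7 cells at an adjusted p under 0.05, with a median log2 fold change of -0.71, against 21.9% lower and a median of 0.01 over all tested miRNAs. The other 3 arms were not in the count table. The 3 most abundant arms, miR-454-3p, miR-301a-3p and miR-130b-3p, had log2 fold changes of -0.58, -0.42 and -0.84 (edgeR adjusted p of 0.00187, 0.0304 and 9.11e-04), which are under 2-fold in size. The fourth, miR-301b-3p, named after its value was seen, fell past 2-fold, with a log2 fold change of -1.84 (edgeR adjusted p = 1.29e-04). Differences between these arms and the family members were not tested. After removal of let-7 and miR-98 from the totals, with a replicate block, and without any 1 of the ΔTUT4/7 libraries, 3 of the 4 were called.

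All 3 hairpins of the family lie within 1220 kb of a HOX cluster miRNA. miR-152 lies 543 kb from miR-10a and 595 kb from miR-196a-1 on chromosome 17, miR-148b lies 303 kb from miR-615 on chromosome 12, and miR-148a lies 1220 kb from miR-196b on chromosome 7. Of 11 listed arms from the HOX clusters, 10 were tested, of which 4 fell, 1 rose and 5 were not called, beside 21.9% lower and 23.2% higher over all tested miRNAs, with a median log2 fold change of -0.12 against 0.01 over all tested miRNAs. The 3 most abundant were miR-10a-5p at -0.08, miR-196a-5p at -1.16 and miR-196b-5p at 0.08 (edgeR adjusted p of 0.682, 7.70e-06 and 0.712). On chromosome 17, both miR-196a-1-3p and miR-152-3p fell, with log2 fold changes of -7.33 (edgeR adjusted p = 1.66e-08) and -2.43, while miR-10a-5p, which lies nearer to miR-152, was not called. miR-196a-1-3p was singled out after its value was seen. The count table places miR-196a-5p on chromosome 12, 346 kb from miR-148b-3p. It fell (-1.16), while miR-148b-3p was not called. Because miR-196a-1 is another copy of this hairpin on chromosome 17, the fall of miR-196a-5p cannot be assigned to chromosome 12. The other arm placed there, miR-196a-3p, also named after its value was seen, was not called (0.64, edgeR adjusted p = 0.470). Its mean was only 1.29 CPM.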

How the data were processed

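RNA of 3 ΔTUT4/7 and 3 wild type HEK 293T cultures was made into libraries by the authors with the QIAseq miRNA Library Kit and sequenced on an Illumina NextSeq instrument. Per the labels and the study's methods, reads were trimmed to 18 nt, aligned to hg38 with Bowtie 1.0.0 and quantified on miRBase 22 in Partek 10.0.22. The deposited values are estimated counts by expectation maximization, written as whole numbers, the highest ones only to 3 digits. Whether molecular identifiers were collapsed was not stated in the sources used here, so errors cover these libraries only. The authors' table of their own comparison (p-values, FDR, fold changes, strain means) was not used.

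CPM were computed over column totals. The test of edgeR 4.0.16 (normalization factors 1, common dispersion 0.0358) in R 4.3.3 was run on miRNAs whose highest count was above 7. Standard errors were taken from the quasi-likelihood F statistic. Ratios had 0.5 added to each count in their log2 values. Exact permutation tests used scipy 1.17.1. Alternatives were DESeq2 1.42.0, limma-trend on log2(CPM + 1) with limma 3.58.1, TMM, RLE, removal of let-7 and miR-98 from the totals, no filter, filterByExpr, a replicate block, each library left out and, for ratios, 1 added to each CPM. The edgeR and limma steps were tested on simulated data. Host genes came from GENCODE 44 and sequences from RefSeq. The named miRNAs are the 5 members, miR-152-5p, the 3 most abundant of each list, and the 3 miRNAs above 10 CPM that correlated best with the most abundant member. Members and lists were chosen with earlier results of these data known.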

Additional observations from a re-analysis of the deposited data

How the results depend on the processing

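miR-152-3p (-2.56 to -2.20) and miR-148a-3p (-1.47 to -0.79) stayed lower in ΔTUT4/7 cells at an adjusted p under 0.05 in all 14 alternatives, and miR-148b-5p was called in none of its 14 (0.21 to 0.78). miR-148a-5p was called after removal of let-7 and miR-98 from the totals (0.65), where 1 member was higher in place of 0, and ranged from 0.27 to 0.75 with 1 library left out. miR-148b-3p ranged from -0.34 to -0.12 with 1 library left out. Over these 6 fits 0 to 1 members were higher, the 1 being miR-148a-5p without wild type replicate 1, and 1 to 2 passed 2-fold, the 1 being miR-152-3p without wild type replicate 3. The log2 difference in the ratio of the 5p arms changed sign with 1 library left out (-0.055 to 0.11). Removal of let-7 and miR-98 from the totals raised the share of higher calls over all miRNAs from 51.5% to 65.5%. The cause of these changes was not tested. Replicate numbers are shared between the strains. Deviations of same-numbered libraries were weakly and negatively correlated (-0.17, -0.16 and -0.25 over 391 miRNAs). Those of differently numbered libraries had correlations from -0.10 to 0.19. Same-numbered libraries were therefore not taken as pairs. With the replicate block miR-152-3p was at -2.42, miR-148a-3p at -1.15, miR-148b-3p at -0.24, miR-148a-5p at 0.47 and miR-148b-5p at 0.44, with no call of a member changed, and 181 miRNAs rose and 168 fell over all. Depth limits miR-148b-5p and miR-152-5p most.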

Other observations

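The miRNAs whose log2(CPM + 1) followed the most abundant member, miR-148a-3p, most closely over the 6 libraries were miR-30c-5p, miR-27b-3p and miR-140-5p, with Pearson correlations of 0.999, 0.998 and 0.990 among 387 candidates above 10 CPM. The 6 points come from 2 strains and share the library totals. miR-30c-5p had 5137, 4819 and 4327 CPM in ΔTUT4/7 replicates 1, 2 and 3 and 7566, 8303 and 16056 CPM in wild type replicates 1, 2 and 3. miR-27b-3p had 4921 to 5598 CPM in the ΔTUT4/7 libraries and 7200, 8167 and 11974 CPM in wild type replicates 1, 2 and 3. miR-140-5p had 321 to 393 CPM in the ΔTUT4/7 libraries and 499, 566 and 1154 CPM in wild type replicates 1, 2 and 3. In each of the 3, as in miR-148a-3p, wild type replicate 3 held the highest level. They were picked for their correlation with miR-148a-3p over these same libraries, so this follows from the choice and is no separate result.

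Of the 200 hairpins with both arms tested, 57 (28.5%) had arms with fold changes of opposite sign, as miR-148a and miR-148b did, and in 5 (2.5%) both arms were called in opposite directions. miR-148a and miR-148b were not among these 5. The hairpins of miR-301a and miR-301b, singled out after their values were seen, had a lower 3p to 5p ratio in ΔTUT4/7 cells, by -2.32 and -1.80 in log2 (limma across hairpins, adjusted p = 0.0132 for both).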
